A study of Mus musculus with 6 samples.

Results

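Mediator is the large complex that connects DNA-bound transcription factors with RNA polymerase II, and its transcripts were followed here in livers of mice labelled as carrying or lacking the Mediator subunit gene Med23 in hepatocytes. The members were the genes of the deposited expression table whose symbols begin with Med and a number, together with Cdk8, Cdk19 and Ccnc, which gave 34 of the 24346 genes. RNA was sequenced from whole livers of 6 male C57/BL6 mice, all 8 weeks old and all taken 24 h after 1 intraperitoneal injection of CCl4 (0.6 μl per g body weight, in sunflower oil), so no uninjured liver entered the comparison. The 3 livers labelled wt were the med23f/f controls, whose Med23 alleles are floxed but intact, and the 3 livers labelled med23 ko came from med23Δli mice, in which Albumin-cre acts on the floxed alleles. Albumin-cre is active in hepatocytes, and the endothelial, immune and stellate cells of the same liver keep the gene. The level of a gene was its FPKM, which scales sequenced fragments by the length of the transcript and by the size of the library.

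Mediator is described as a head, a middle and a tail module held together by the scaffold subunit MED14, and as a separate kinase module that binds it reversibly. The head contacts RNA polymerase II, the middle links head and tail and also receives the kinase module, and the tail holds many of the surfaces that activators bind. The kinase module consists of CDK8 or its paralogue CDK19, their partner cyclin C (Ccnc), MED12 or MED12L, and MED13 or MED13L. MED23 belongs to the tail.

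The members comprised 7 head genes, 4 genes for MED27 to MED30, which lie between head and tail and are kept apart here, 9 middle genes, Med14, 5 tail genes and 7 kinase module genes. The remaining member, Med9os, is an antisense RNA at the Med9 locus that only shares the name. Only genes that averaged 0.5 FPKM or more across all 6 livers were compared between the groups, which left 11956. Among the members 32 passed this limit, and Med12l and Med9os did not.

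The sequences on which the identity of the main genes rests are given first, 5′ to 3′. Cdk8 and Cdk19 are paralogues, so the first 90 coding bases of each are shown with the bases that differ between them in capitals (GENCODE annotation of GRCm38, the assembly also named mm10). The stretch of Cdk8 lies in exon 1 at chr5:146231693-146231782 and that of Cdk19 in exon 1 at chr10:40349594-40349683, both on the plus strand.
Cdk8: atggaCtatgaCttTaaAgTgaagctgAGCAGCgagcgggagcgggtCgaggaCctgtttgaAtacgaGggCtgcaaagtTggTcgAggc
Cdk19: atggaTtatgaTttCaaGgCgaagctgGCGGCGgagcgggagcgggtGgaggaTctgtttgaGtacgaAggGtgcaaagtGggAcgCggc
The 2 stretches differ at 19 of 90 bases. Over the aligned coding sequences 1038 of 1389 bases (74.7%) were identical, and the longest identical run was 23 bases. Of all 75-base stretches in the Cdk19 transcripts, 3.25% also occurred in a transcript of another gene, the antisense gene Cdk19os, and of those of Cdk8 3.25% occurred in the pseudogene Gm7107. No stretch of this length was shared by Cdk8 and Cdk19. Exons of Cdk19os on the opposite strand cover 4.58% of the exonic bases of Cdk19, and without strand their reads cannot be told apart.

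The study's reagents for Med23 are shown because they mark where in the transcript that gene was targeted and measured outside the sequencing. The shRNA targets and the qRT-PCR primers are printed as designed.
shMed23#a: tgaagcccaggtttgttat
shMed23#b: tggcagttgagactggtct
Med23-F: tcggaaaatcattggaggag
Med23-R: caataggcaggcatttcgtt
All 4 matched Med23 transcripts and no transcript of another gene. In the transcript with 30 exons, shMed23#a matched exon 22 (chr10:24903684-24903702) and shMed23#b exon 4 (chr10:24873567-24873585), both in coding sequence. The forward primer matched exon 5 (chr10:24874651-24874670) and the reverse primer exon 7 (chr10:24876959-24876978), which frame a product of 169 bases. The FPKM value of the table covers the gene as a whole, and which exons are floxed is not given in the sources used here.

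The groups were compared with limma on log2(FPKM + 0.1), a scale that understates the change of low genes, and called at a Benjamini-Hochberg adjusted p under 0.05. FPKM keeps no read numbers, so the depth of each library is unknown, and the spread between 3 mice is the only error used. Each library listed 7628 to 9341 genes at 0. The 6 hepatocyte markers examined were above 0 in every library, and their summed level was 22101 to 31611 FPKM in the controls and 18444 to 24665 FPKM in the livers labelled med23Δli. Most of that sum was Alb, none of the 6 was called and 3 had an unadjusted p under 0.05 in limma, and the log2 fold changes ran in both directions, from −0.63 for Cps1 to 0.38 for Ttr (median −0.45). All 6 endothelial markers fell (median log2 fold change −1.04), from a sum of 81.4 to 119 FPKM to one of 43.7 to 46.9 FPKM, and 2 of 6 stellate cell markers, Des and Colec11, fell, where 9.48% of all genes tested were called lower. Reln on the same stellate list had 2.38 ± 0.422 and 3.34 ± 0.561 FPKM (SD, n = 3 each; log2 fold change 0.47, adjusted p = 0.122 in limma). No macrophage, neutrophil or cholangiocyte marker was called, against 21.1% of all genes tested. An unadjusted p under 0.05 in limma was found for 2 of 6, 3 of 5 and 0 of 4, against 37.6% of all genes tested. All 5 neutrophil markers had log2 fold changes below 0, from −1.33 for Retnlg to −0.16 for S100a9 (median −0.60). The macrophage markers ran from −0.51 for Vsig4 to 0.29 for Cd68 (median −0.18). The 5 lymphocyte markers lay under the limit of 0.5 FPKM. The part of these cell types in the levels of Mediator genes was not tested. In whole-liver RNA, fewer cells of a type and less RNA per cell cannot be told apart.

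Med23 itself, the lowest tail gene, was not called between the groups. It lies on chromosome 10 (24869986 to 24913681, plus strand). The control livers held 3.42, 2.97 and 4.14 FPKM and the livers labelled med23Δli 3.40, 3.40 and 2.91 FPKM, so that the groups overlapped. The means were 3.51 ± 0.589 and 3.24 ± 0.286 FPKM (SD, n = 3 each). The log2 fold change was −0.11 with a 95% interval from −0.50 to 0.29 and an adjusted p of 0.685 in limma. The log2 fold change was 0.02 without control replicate 3, the highest control, and −0.25 (adjusted p = 0.213 in limma) after a correction of each library for transcript length and GC content. An exact two-sided permutation test of the 6 livers gave p = 0.4, where 3 against 3 cannot go below 0.1. Set against its own module, Med23 stood at 25.1%, 18.3% and 25.4% of the mean of the other 4 tail genes in the controls and at 20.8%, 20.8% and 19.8% in the other livers, which also overlapped. The sequencing data therefore do not show the deletion at the level of the whole gene, and the groups are named below by their labels.

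**Figure D1:**
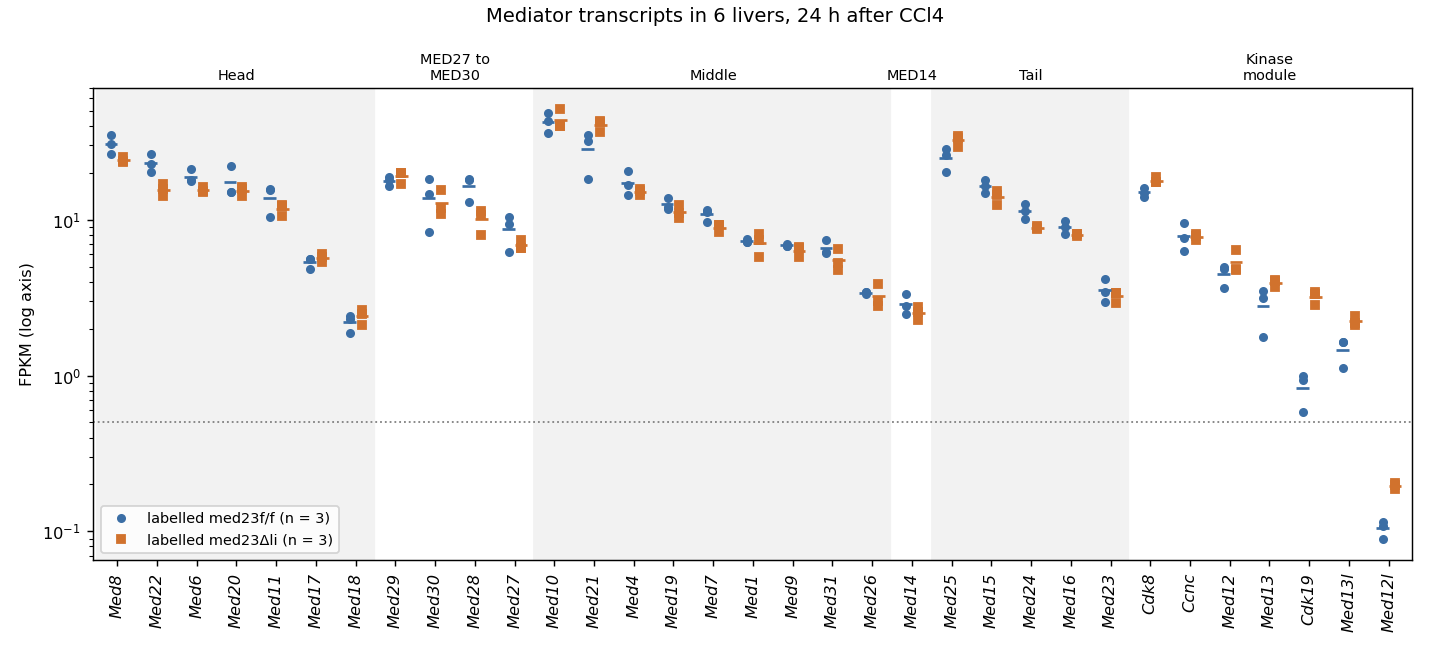
Level of the 33 Mediator genes in each liver, in FPKM on a log axis, ordered within each module by mean level; points are livers, short bars are group means (n = 3 each) and the dotted line is the limit of 0.5 FPKM under which genes were not tested. The groups stand apart for Cdk19 in the kinase module, from 0.585 to 0.992 FPKM in the controls and from 2.84 to 3.45 FPKM in the livers labelled med23Δli, and run together for Med23.

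Of the 32 members tested, 1 rose (Cdk19) and 2 fell (Med22 and Med28) in the livers labelled med23Δli, and 29 were not called. That is 9.38% of the members, against 21.1% of all genes tested, of which 11.6% were higher and 9.48% lower. The number that fell was 4 without control replicate 3, when Med8, Med24 and Med27 joined Med22, 1 without control replicate 1 or 2, and 0 without any of the 3 livers labelled med23Δli. Groups did not overlap for 14 members, 6 higher and 8 lower, or 43.8%, against 43.7% of all genes tested (23.3% higher and 20.4% lower). Only Cdk19 also changed by more than 2-fold, a call made for 7.9% of all genes tested (4.45% higher and 3.45% lower). The 26 members outside the kinase module had a median log2 fold change of −0.16, with 6 above 0 and 20 below, and the 6 tested kinase module genes had a median of 0.40, with 6 above 0. The median of all genes tested was 0.02, with 52.2% above 0.

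**Figure D2:**
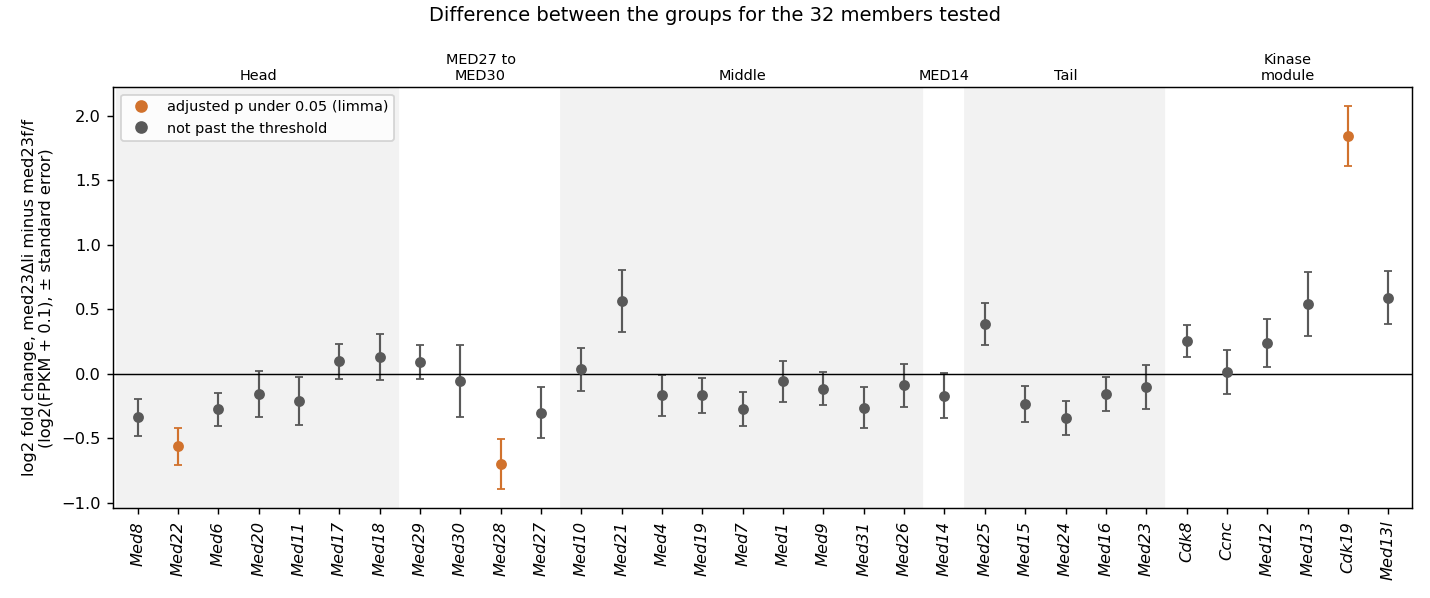
Log2 fold change of each tested member, livers labelled med23Δli minus controls on the log2(FPKM + 0.1) scale, with its standard error (n = 3 each). The 6 kinase module genes lie at or above 0, from 0.01 for Ccnc to 1.84 for Cdk19, while Med22 (−0.56) and Med28 (−0.70) are the only called members below 0.

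Within the kinase module only Cdk19, the less abundant of the paired kinases, was called. That is 16.7% of the 6 tested genes, against 21.1% of all genes tested. The difference between Cdk19 and the other genes of the module was not tested. Cdk19 stood at 0.992, 0.585 and 0.932 FPKM in the control livers and at 3.45, 3.32 and 2.84 FPKM in those labelled med23Δli. Every liver of the latter group was above every control. The means of 0.836 ± 0.219 and 3.20 ± 0.326 FPKM (SD, n = 3 each) differed by 3.83-fold. On the log2 scale the difference was 1.84 ± 0.23 (SE) with an adjusted p of 0.00356 in limma, and it ranked 175th from the highest among the 11956 genes. The exact permutation test gave its smallest possible p, 0.1. Cdk19 was called in each of the 6 fits that left out 1 liver, with log2 fold changes from 1.63 to 1.97.

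Cdk8, the kinase that Cdk19 can replace in the module, was the most abundant gene of the module in every liver. Its levels were 14.9, 14.0 and 15.9 FPKM in the controls and 17.4, 17.4 and 18.8 FPKM in the livers labelled med23Δli. The groups did not overlap, but the log2 fold change of 0.25 (95% interval −0.03 to 0.54) was not called (adjusted p = 0.166, limma). Because both levels are per transcript length they can be added. Cdk19 made up 6.25%, 4.01% and 5.52% of the summed FPKM of both kinases in the controls and 16.6%, 16.1% and 13.1% in the livers labelled med23Δli. The mean share rose from 5.26 ± 1.14% to 15.3 ± 1.87% (SD, n = 3 each), again with the smallest p that the exact permutation test allows, 0.1. Cdk8 thus remained the main source of kinase transcripts in all 6 livers. The sum of both kinases was 15.9, 14.6 and 16.9 FPKM against 20.8, 20.7 and 21.6 FPKM, which did not overlap.

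Ccnc, the cyclin that both kinases need for activity, was not called. It was at 9.56, 7.61 and 6.32 FPKM in the controls and at 7.87, 7.38 and 8.13 FPKM in those labelled med23Δli. These ranges overlapped, and the log2 fold change of 0.01 (95% interval −0.38 to 0.41) turned to −0.02 when libraries were centred on their medians or quantile normalized. The adjusted p was 0.966 in limma.

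Med12 and Med12l encode the subunit that activates the kinase. Med12 held 4.99, 3.66 and 4.82 FPKM in the controls and 4.75, 6.36 and 4.83 FPKM in the other livers, and the log2 fold change was 0.24 (adjusted p = 0.374, limma). These values overlapped, and a single liver, med23Δli replicate 2, stood above the rest. The log2 fold change was 0.10 without that liver and 0.10 without control replicate 2. Med12l was the lowest Mediator gene, at 0.108, 0.0897 and 0.116 FPKM against 0.199, 0.205 and 0.186 FPKM. Its groups did not overlap, but it lay under the limit of 0.5 FPKM and was not tested. Other genes on the opposite strand cover 17.3% of its exonic bases. The share of Med12l in the summed FPKM of the pair was 2.12%, 2.39% and 2.34% against 4.02%, 3.12% and 3.70%.

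Med13 and Med13l encode the subunit that docks the kinase module on the rest of Mediator. Med13 was at 3.16, 1.77 and 3.47 FPKM in the controls and at 4.03, 3.71 and 4.12 FPKM in those labelled med23Δli. Med13l, the lowest tested gene of the module by its mean over all livers, was at 1.65, 1.12 and 1.64 FPKM against 2.11, 2.43 and 2.17 FPKM. Neither pair of groups overlapped, and neither gene was called (log2 fold changes 0.54 and 0.59, adjusted p = 0.153 and 0.0747 in limma). Without control replicate 2 the log2 fold change of Med13 was 0.25. The share of Med13l in the pair was 34.3%, 38.8% and 32.1% in the controls and 34.4%, 39.5% and 34.5% in the other livers, so that it overlapped. The shares of Cdk19 and of Med12l in their pairs did not overlap.

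**Figure D3:**
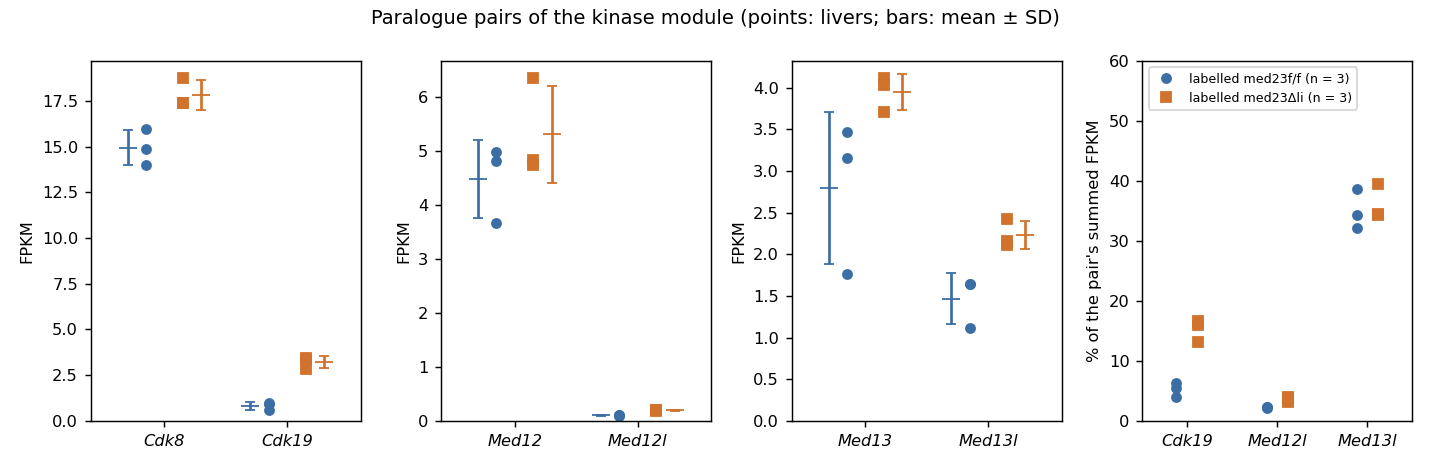
FPKM of the 3 paralogue pairs of the kinase module in each liver (points) with mean ± SD (bars, n = 3 each), and on the right the less abundant paralogue as a percentage of its pair's summed FPKM. The share of Cdk19 runs from 4.01% to 6.25% in the controls and from 13.1% to 16.6% in the livers labelled med23Δli. The shares of Med12l, a gene under 0.5 FPKM, also do not overlap (2.12% to 2.39% and 3.12% to 4.02%), whereas those of Med13l overlap.

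Summed over its 7 genes, the kinase module reached 35.3, 28.8 and 33.2 FPKM in the controls and 39.8, 40.8 and 41.0 FPKM in the livers labelled med23Δli. As a percentage of the summed FPKM of the other 26 Mediator genes this was 9.42%, 7.66% and 9.15% against 10.996%, 11.8% and 12.05%. The groups did not overlap, and the control replicate 2 was the lowest. That library also stood apart by transcript length. The median deviation of genes with transcripts over 6 kb from their mean over the 6 livers was −0.29 on the log2 scale in control replicate 2 and 0.18 in med23Δli replicate 2. Across all genes the median log2 fold change ran from −0.07 for transcripts of 1 to 2 kb to 0.19 for those over 6 kb. The longest transcripts of the 6 tested kinase module genes had a median length of 6373.5 bases, against 2772 bases for the other 26 members.

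Without control replicate 2 the median log2 fold change of the kinase module was 0.23 in place of 0.40. After the correction for transcript length and GC content, added after the trend with length was seen, it was 0.18, with 5 of 6 genes above 0 and Ccnc at −0.27, and the median of the other members was −0.21. Under the same correction Cdk19 kept a difference of 1.67 on the log2 scale (adjusted p = 0.00247, limma), Cdk8 had 0.097 in place of 0.25, Med12 0.15 in place of 0.24, Med13 0.20 and Med13l 0.43. Med25 (0.48, adjusted p = 0.0339) and Med7 (−0.41, adjusted p = 0.0337) were called in that fit alone among those that used all 6 livers.

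**Figure D4:**
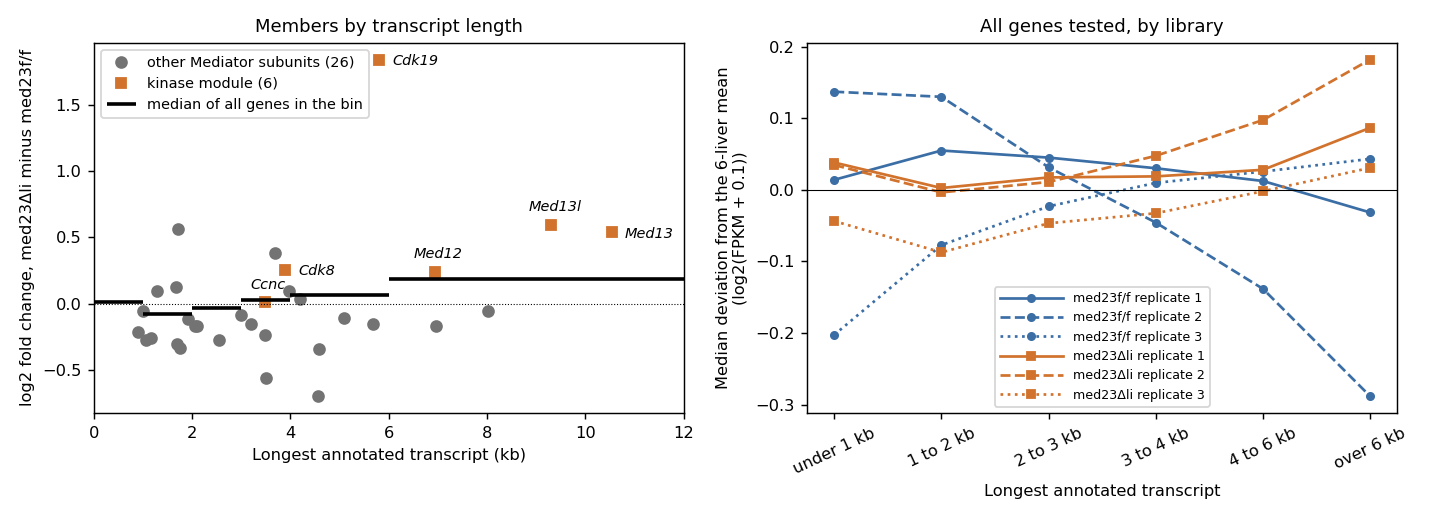
Left, log2 fold change of each tested member against the length of its longest annotated transcript in kb, with black bars for the median of all genes in each length range; right, median deviation of all tested genes from their 6-liver mean on the log2(FPKM + 0.1) scale, by length range and library. The bars run from −0.07 for 1 to 2 kb to 0.19 over 6 kb, control replicate 2 reaches −0.29 over 6 kb, and Cdk19 at 1.84 lies far above the bar of its length range.

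The summed level of the head genes was 110, 117 and 107 FPKM in the controls and 90.8, 92.8 and 87.8 FPKM in the livers labelled med23Δli, which did not overlap. Of its 7 genes 5 lay below 0, with a median log2 fold change of −0.21, and Med22 alone was called (14.3%, against 21.1% of all genes tested). Groups did not overlap for 3 of the 7 (42.9%, against 43.7% of all genes tested). Med22, the partner of MED11 in the head, was at 20.2, 26.3 and 22.8 FPKM in the controls and at 15.7, 16.8 and 14.1 FPKM in the other livers. Every liver labelled med23Δli was below every control, and the means were 23.1 ± 3.05 and 15.5 ± 1.37 FPKM (SD, n = 3 each). The log2 fold change was −0.56 ± 0.15 (SE) with an adjusted p of 0.0321 in limma. It kept its direction but not the threshold without control replicate 2 (adjusted p = 0.0651) or without med23Δli replicate 1, 2 or 3 (0.109, 0.0785 and 0.107).

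Med8, the most abundant head gene, which joins the head's movable jaw to its neck, had 30.8, 35.1 and 26.4 FPKM in the controls and 23.4, 23.8 and 25.3 FPKM in the livers labelled med23Δli. These did not overlap, yet the log2 fold change of −0.34 had an adjusted p of 0.125 (limma). Med18, part of the movable jaw and the lowest head gene, had 2.39, 2.32 and 1.89 FPKM against 2.48, 2.11 and 2.65 FPKM, which overlapped. Among the others, Med6, Med11 and Med20 lay between −0.27 and −0.16 and Med17, the scaffold of the head, at 0.10. Other genes cover 28.4% of the exonic bases of Med20. Med11 had −0.41 without control replicate 3 and −0.11 without control replicate 2, and Med17 had 0.03 without control replicate 2.

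Of the 4 genes for MED27 to MED30, 1 fell (25%, against 9.48% of all genes tested called lower), Med28. It was at 18.2, 13.0 and 18.0 FPKM in the controls and at 10.8, 11.4 and 7.98 FPKM in those labelled med23Δli, without overlap. The means were 16.4 ± 2.96 and 10.04 ± 1.81 FPKM (SD, n = 3 each). This was a log2 fold change of −0.70 ± 0.19 (SE) and an adjusted p of 0.0399 in limma. The call held without control replicate 2 (adjusted p = 0.0262) but not without control replicate 1 (0.106) or 3 (0.0715), nor without med23Δli replicate 1, 2 or 3 (0.0982, 0.0761 and 0.124). The log2 fold change stayed between −0.86 and −0.55 in these fits. On all 6 livers the call of Med28 was also lost with no filter on low genes (adjusted p = 0.0683) and without the variance trend (0.0539).

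None of the other genes of this group was called on all 6 livers. Med29, the most abundant, had 17.8, 18.9 and 16.5 FPKM in the controls and 19.9, 17.0 and 20.0 FPKM in the other livers. Med27, the lowest, had 9.38, 10.4 and 6.23 FPKM against 7.40, 6.59 and 6.63 FPKM. Both overlapped, with log2 fold changes of 0.09 and −0.30, and Med30 had −0.06. Without control replicate 3, the lowest control of Med27, Med27 was called at −0.52 (adjusted p = 0.0335 in limma). Without control replicate 2 Med27 had −0.15. The median of the group was −0.18, with −0.45 without control replicate 3 and −0.0075 without control replicate 2, and its summed level overlapped, at 49.1 to 60.5 FPKM in the controls and 46.8 to 49.99 FPKM in the other livers.

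The bases before the start sites of the genes that fell are shown to let their promoters be compared, from RefSeq on GRCm38.p6, without annotated exon sequence. Med22 is read on the minus strand at chr2:26910678-26910763, where 164 of the 250 bases were exonic and left out, and Med28 on the plus strand at chr5:45519979-45520228. The stretch of Med22 stops 35 bases before its RefSeq start, and that of Med28 reaches its start. Capitals mark matches to CCAAT or TATAAA or AGGTCA on either strand. AGGTCA is the half-site that many nuclear receptors recognise.
Med22: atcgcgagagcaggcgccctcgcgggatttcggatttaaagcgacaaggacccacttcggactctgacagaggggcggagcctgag
Med28: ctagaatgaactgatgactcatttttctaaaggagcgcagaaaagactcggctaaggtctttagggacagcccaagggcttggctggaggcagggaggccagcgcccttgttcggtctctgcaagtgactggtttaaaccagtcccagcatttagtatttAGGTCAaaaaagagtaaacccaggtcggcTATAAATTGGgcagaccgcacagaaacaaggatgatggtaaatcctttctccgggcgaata
The window of Med28 held AGGTCA and also TATAAA, which a match to CCAAT on the opposite strand overlapped, and the window of Med22 held none of these. Of the 34 members 29 had RefSeq windows, 33 in all, and Cdk19, Med23, Med24, Med30 and Med8 had none. Over whole windows of 250 bases, AGGTCA occurred in 24.2% of member windows and 16.3% of all windows, TATAAA in 9.09% and 13.6%, and CCAAT in 36.4% and 37.4%. A further motif searched, CCGGAAG, which ETS factors recognise, occurred in 27.3% and 8.86%. These are counts of letters and do not show binding.

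No middle gene was called, with 1 of 9 at an unadjusted p under 0.05 in limma against 37.6% of all genes tested, and 7 of 9 lay below 0 (median log2 fold change −0.12). Their summed level overlapped, at 129 to 143 FPKM in the controls and 135 to 151 FPKM in the livers labelled med23Δli. Med10 was the most abundant member of all, at 43.1, 35.9 and 48.7 FPKM in the controls and 51.2, 39.6 and 40.1 FPKM in the livers labelled med23Δli, which overlapped. Its level is uncertain, since 92.8% of its exonic bases are also covered by the antisense gene Gm26819 and the library kit kept no strand. Med21, whose product forms the hinge of the middle with MED7, had the highest log2 fold change of the middle genes. It held 34.9, 31.9 and 18.3 FPKM in the controls and 42.8, 36.5 and 42.6 FPKM in the other livers, without overlap. Its log2 fold change was 0.57 (95% interval 0.01 to 1.12, adjusted p = 0.127 in limma), and it was 0.28 without control replicate 3, the low control. Other genes on the opposite strand cover 15.5% of the exonic bases of Med21, 21.2% of those of Med7 and 26.3% of those of Med31. Med7 itself had 9.66 to 11.6 FPKM in the controls and 8.31 to 9.20 FPKM in the other livers, a log2 fold change of −0.27 (adjusted p = 0.169).

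Med1, the subunit through which nuclear receptors bind Mediator, was at 7.23, 7.21 and 7.51 FPKM in the controls and at 7.43, 8.13 and 5.72 FPKM in those labelled med23Δli. The spread was wider in the second group and enclosed the first (log2 fold change −0.06, adjusted p = 0.815 in limma). Med26, the lowest middle gene, which links Mediator to elongation factors, had 3.43, 3.44 and 3.34 FPKM against 3.00, 2.79 and 3.89 FPKM, which also overlapped. The remaining middle genes Med4, Med9, Med19 and Med31 had log2 fold changes from −0.26 to −0.12, and of these only Med9 did not overlap between groups. Med4 had −0.031 without control replicate 3 and −0.29 without control replicate 2, and Med9 −0.048 without med23Δli replicate 3. Med14, the backbone, was at 3.33, 2.47 and 2.78 FPKM against 2.54, 2.75 and 2.26 FPKM, which overlapped (log2 fold change −0.17, and −0.06 without control replicate 1 or −0.27 without control replicate 2).

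In the tail, none of the 5 genes was called in limma, against 21.1% of all genes tested, and 2 had an unadjusted p under 0.05, against 37.6%. Below 0 lay 4 of the 5, and their summed level overlapped, at 58.0 to 69.5 FPKM in the controls and 61.5 to 68.8 FPKM in the other livers. Med25, a target of many activators, was the exception and the most abundant tail gene. It held 20.1, 26.2 and 28.3 FPKM in the controls and 34.2, 33.3 and 29.3 FPKM in the livers labelled med23Δli, without overlap (log2 fold change 0.39, 95% interval 0.02 to 0.76, adjusted p = 0.121). Without control replicate 1 it was 0.24. Med24, which binds next to MED23 in the tail, was at 11.4, 12.6 and 10.1 FPKM against 8.75, 8.83 and 9.06 FPKM. Its groups did not overlap, and its log2 fold change of −0.35 was not called (95% interval −0.65 to −0.04, adjusted p = 0.0988 in limma). Med16, the third neighbour in the same submodule, also did not overlap, from 8.12 to 9.77 FPKM in the controls and 7.86 to 8.06 FPKM in the other livers (log2 fold change −0.16). Med15 had −0.24, with overlap. The ratio of Med23 to Med24 was 30.0%, 23.6% and 41.1% in the controls and 38.9%, 38.5% and 32.1% in the livers labelled med23Δli, which overlapped.

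Med9os was listed at 0 FPKM in control replicates 1 and 3 and in med23Δli replicate 1 and at 0.109 to 0.210 FPKM in the other livers.

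The machinery that works with Mediator was examined by 5 lists. None of the 12 RNA polymerase II subunits was called in limma, against 21.1% of all genes tested. An unadjusted p under 0.05 was found for 3 of them, against 37.6% of all genes, and the median log2 fold change was −0.22. Of 18 general transcription factor genes 1 fell, where 9.48% of all genes tested were called lower. This was Gtf2f1, the large subunit of TFIIF, which accompanies the polymerase to the promoter, from 52.6 ± 4.07 to 28.8 ± 2.38 FPKM (SD, n = 3 each; log2 fold change −0.87, adjusted p = 0.00621 in limma). Of 13 TFIID subunit genes 1 fell, Taf9, from 54.4 ± 0.615 to 39.3 ± 3.42 FPKM (log2 fold change −0.47, adjusted p = 0.0327). The medians of these last 2 lists were −0.12 and 0.05.

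Elongation factors, which release and speed the polymerase and several of which bind Mediator through MED26 or the kinase module, had the most calls. Of 14 genes 4 rose and 1 fell, or 28.6% and 7.14%, against 11.6% and 9.48% of all genes tested, with a median log2 fold change of 0.41. The 3 with the smallest p were Mllt1 (0.68, adjusted p = 0.0153), Aff4, the scaffold of the super elongation complex (0.95, adjusted p = 0.0314), and Ell, which fell (−0.62, adjusted p = 0.0463, all in limma). Of 7 genes for cohesin and its loader, which bridges enhancers and promoters together with Mediator, 1 rose, the loader subunit Mau2 (0.68, adjusted p = 0.0430). Over the 5 lists together 5 genes rose and 3 fell. Leaving out any of med23Δli replicates 1, 2 and 3 left none that rose and 1 that fell. Without control replicate 1 or 2 the counts were 2 and 1 higher, each with 1 lower, and without control replicate 3 they were 8 and 8.

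**Figure D5:**
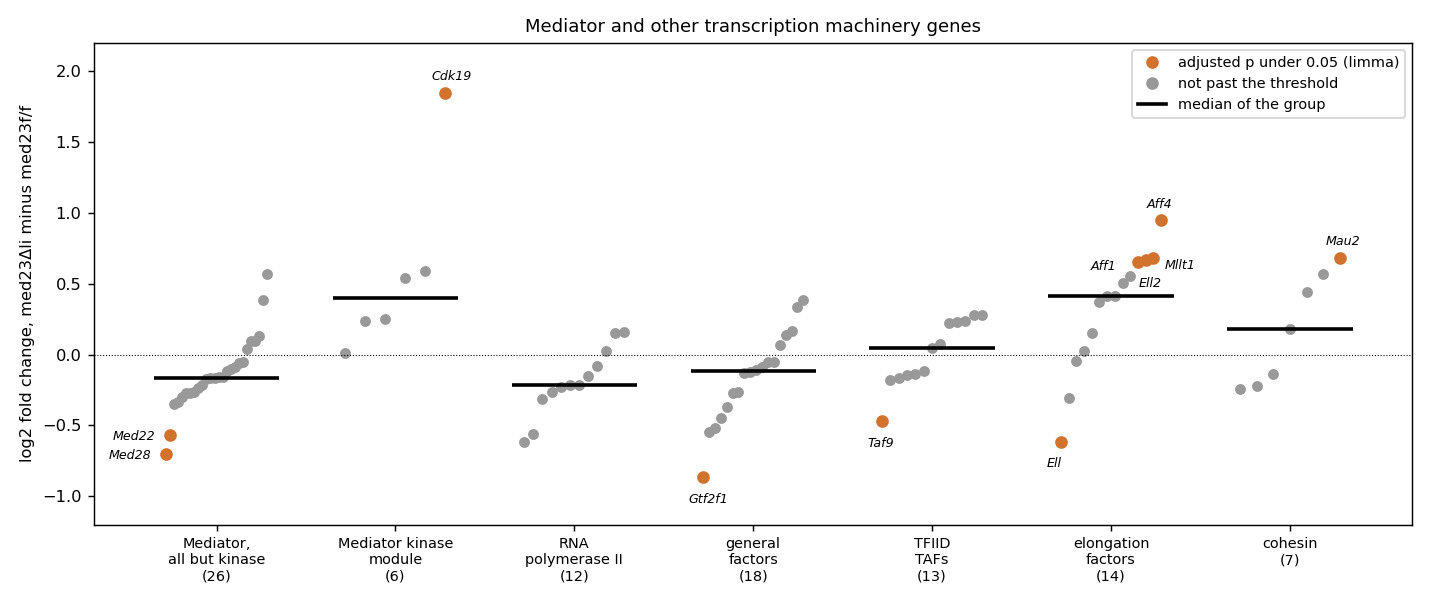
Log2 fold change (livers labelled med23Δli minus controls, log2(FPKM + 0.1) scale) of each tested gene of Mediator and of the 5 other lists, with the number of genes under each name; orange points were called in limma and black bars are medians. The medians run from −0.22 for RNA polymerase II to 0.41 for elongation factors, with −0.16 for Mediator without its kinase module and 0.40 for the kinase module. None of these is corrected for transcript length and GC content. After that correction the kinase module had 0.18 and the rest of Mediator −0.21.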

How the data were processed

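Total RNA of 6 livers (3 labelled wt, 3 labelled med23 ko) was sequenced as paired ends from unstranded libraries by the authors, who used FastQC, TopHat and Cuffdiff on UCSC mm10. Versions, annotation and options are not given in the sources used here. The deposited table holds FPKM for each library, with 0 columns of library values left unmapped. It also holds group means, log2 fold changes, a test statistic (a score), p-values and q-values, all from the comparison the authors made, which were not used. Each library is 1 mouse. Nothing in the labels ties replicate numbers across groups.

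The 11956 genes that averaged 0.5 FPKM or more were compared as log2(FPKM + 0.1) by limma (version 3.58.1, R 4.3.3), whose moderated variance followed a trend with mean level, and p was adjusted after Benjamini and Hochberg across them all. Single values had an exact two-sided permutation test. Low FPKM values shared no step from which whole reads could be recovered (at most 0.549% of ratios between libraries).

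Members were sorted into modules by their known place in Mediator, and every member is accounted for. Values in each liver are given for Med23, called members, the paralogue pairs, Ccnc, and the highest and lowest gene of each module, and those of Med1, Med21 and Med24 were chosen after they were seen. From other lists, at most the 3 called genes with the smallest p are named, apart from markers. The members and lists were chosen with earlier results of these data known. Positions, overlaps, lengths and GC content came from GENCODE M 21, with a length and GC content for 11528 genes, and promoters from RefSeq. Python 3.11.15, pandas 2.3.3, scipy 1.17.1 and matplotlib 3.10.9 did the rest. There were 11 alternatives besides leaving out each of the 6 livers. The length and GC correction was added after seeing the data.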

Additional observations from a re-analysis of the deposited data

How the results depend on the processing

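Depth is unknown from FPKM, there were 3 livers a group, and Med22 and Med28 lay near the threshold. Cdk19 was called under every alternative run, with log2 fold changes from 1.199 to 1.97 and adjusted p from 0.00231 to 0.0243 in limma, and Med22 and Med28 stayed below 0 under every one (adjusted p 0.0235 to 0.109 and 0.0109 to 0.124). Members that fell numbered 2, against 1 (Med22) with no filter or without a trend, 3 after the length and GC correction, and 0 to 4 when a liver was left out. Members that rose numbered 1, also when a liver was left out, and 2 after the length and GC correction. Members called with more than a 2-fold change numbered 1, and 3 with any size of change. In the other machinery lists 5 genes rose and 3 fell. The number that rose was 1 with no filter, 3 with libraries rescaled to equal totals, 2 without a trend, 3 after the length and GC correction and 0 to 8 when a liver was left out. The number that fell was 5 with quantile normalization and 1 to 8 when a liver was left out.

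When the replicate number was entered as a block, no member fell (Med22 adjusted p = 0.0642, Med28 0.0831 in limma), 0 against 2, and 1 list gene rose and 1 fell. Livers with the same number did not deviate together over all genes tested (correlations −0.022, −0.046 and −0.12). Such correlations cannot exclude a pairing that touches few genes, so whether the numbers pair the livers is unknown.

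After the length and GC correction the module medians were −0.31 for the head, −0.39 for Med14, −0.25 for the tail (the value of Med23) and 0.18 for the kinase module, against −0.21, −0.17, −0.16 and 0.40, and 4 genes near 0 changed sign, Ccnc (−0.27), Med17 (−0.0088), Med26 (0.038) and Med9 (0.019). Quantile normalization gave a middle median of −0.16 against −0.12, Ccnc −0.021 and Med10 −0.049, and centring gave Ccnc −0.017. With a liver left out, the log2 fold change of Med23 ran from −0.22 to 0.017, the medians from −0.31 to −0.14 for the head, −0.45 to −0.0075 for MED27 to MED30 and −0.16 to −0.10 for the middle, and the values of genes near 0 from −0.37 to 0.18 for Med30, −0.084 to 0.14 for Med10, −0.13 to 0.16 for Ccnc, −0.25 to 0.030 for Med20, −0.23 to 0.0057 for Med26 and −0.16 to 0.086 for Med1. The causes were not tested.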
